A study of Mus musculus with 24 samples.

Results

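The effect of losing Lrp2 in the kidney was compared between 2 and 12 weeks of Western diet, gene by gene, as the knockout against wild-type difference at 12 weeks minus the same difference at 2 weeks. All 24 libraries of the series entered the comparison, and 17286 of 54532 gene identifiers had enough counts to be tested. Bulk kidney RNA came from mice lacking Lrp2 in proximal tubule cells and from wild-type littermates, with 6 libraries of each genotype after 2 weeks and 6 of each after 12 weeks of diet. Every group ate the Western diet, so no group shows the kidney on ordinary feed. No label names the promoter that drives the deletion, the strain, the sex or the age. The labels add the name SM22 to the mouse line without explaining it. Nor do they say whether the libraries of a group are separate mice, and the p-values therefore cover the spread among the libraries, part of which may be technical.

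Lrp2 encodes megalin, a very large receptor of the brush border that lets proximal tubule cells take up filtered proteins, vitamins and hormones. Proximal tubule cells depend on mitochondrial fat oxidation and carry most of the kidney's transporters, and after injury they can lose these functions, make secreted injury proteins and attract leukocytes. With time such injury can be repaired, can persist as a failed repair state, or can be followed by lymphocyte infiltration, so a second time point shows which gene responses grew, shrank or turned.

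The effect of the knockout differed between 2 and 12 weeks for 30 genes, 0.174% of those tested (edgeR quasi-likelihood test, Benjamini-Hochberg adjusted p under 0.05). A positive difference, found for 20 genes (0.116%), means that knockout kidneys stood higher relative to wild type at 12 than at 2 weeks. These 20 included Foxp3, Tnfrsf18 and Camk4, genes with known roles in T cells, the fatty acyl-CoA thioesterase gene Acot1 and the matrix protein gene Coch. Foxp3, Tnfrsf18 and Camk4 each overlap an opposite-strand gene, and Foxp3 was the only gene called of 26 tested T and natural killer cell genes. A negative difference, found for 10 genes (0.0579%), included the sulfate transporter gene Slc13a1, the glypican gene Gpc3, the membrane protein gene Tmem176b and Sptlc2, a subunit of the first enzyme of sphingolipid synthesis. In bulk kidney RNA, more cells of a type and more RNA per cell cannot be told apart. A raw p under 0.05 was reached by 1835 genes (10.6%), 948 higher (5.48%) and 887 lower (5.13%). The median standard error (SE) of a log2 difference was 0.18, the smallest difference called was 0.44 on the log2 scale, and the size that could be detected differed from gene to gene with its SE.

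Wild-type libraries held between 15.6 and 34.1 M counts at 2 weeks (M, 1000000 counts) and between 11.4 and 14.5 M at 12 weeks. Knockout libraries held between 16.3 and 25.2 M, then between 11.3 and 15.2 M. The 12-week libraries were thus shallower in both genotypes. The share of counts on mitochondrially encoded genes was 8.89% ± 0.64 in wild type and 6.87% ± 1.65 in knockout at 2 weeks, and 13.69% ± 0.88 and 10.45% ± 1.08 at 12 weeks (SD, n = 6). The tissue matched its label: the 32 proximal tubule transporter genes summed to between 9413 and 22317 counts per 1000000 (CPM) in each library. Some genes had no counts at all at one duration, among them Med10, Pdcd2 and Pus3, with 0 counts over the 12 libraries at 2 weeks and 3346, 2289 and 1871 at 12 weeks. Diet duration and any difference in how the 2-week and 12-week libraries were made or counted cannot be told apart within a genotype. A factor that multiplies a gene equally in both genotypes at 1 duration cancels in the difference of genotype effects. Counts added to or missing from a gene at 1 duration need not cancel, and their part in the called genes was not tested.

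Lrp2 was lower in the knockout by nearly the same ratio at both durations. Its level in wild type had a lowest, median and highest value of 1588, 2043 and 2289 CPM at 2 weeks and 1409.9, 1771 and 2503 CPM at 12 weeks. In knockout the same values were 192, 337 and 584 CPM and 186, 343 and 389.7 CPM. The genotypes did not overlap at either duration. The log2 fold change was -2.51 at 2 weeks and -2.54 at 12 weeks, and the difference was -0.03 (SE 0.29, edgeR adjusted p = 0.99), so the depth of the deletion differed by less than the error of the comparison.

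Most genes that responded at 2 weeks responded in the same direction at 12 weeks. The knockout effect passed for 5630 genes (32.6%) at 2 weeks and for 7267 (42.0%) at 12 weeks in the fit of all libraries. The 4377 genes that passed at both made up 77.7% of the 2-week and 60.2% of the 12-week calls, and 4359 of them had the same sign. Of the 4143 genes that passed at 1 duration only, 16 (0.386%) were called for the difference, so passing at 1 duration and not at the other is seldom a tested change. Across genes with a mean of at least 1 CPM, the 12-week effect followed the 2-week effect with a slope of 0.96 (Pearson r = 0.82, Spearman rho = 0.77, 15273 genes, which are not independent replicates). The spread of the effects over these 15273 genes was 0.64 at 2 weeks and 0.75 at 12 weeks (SD of the log2 fold change).

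**Figure D1:**
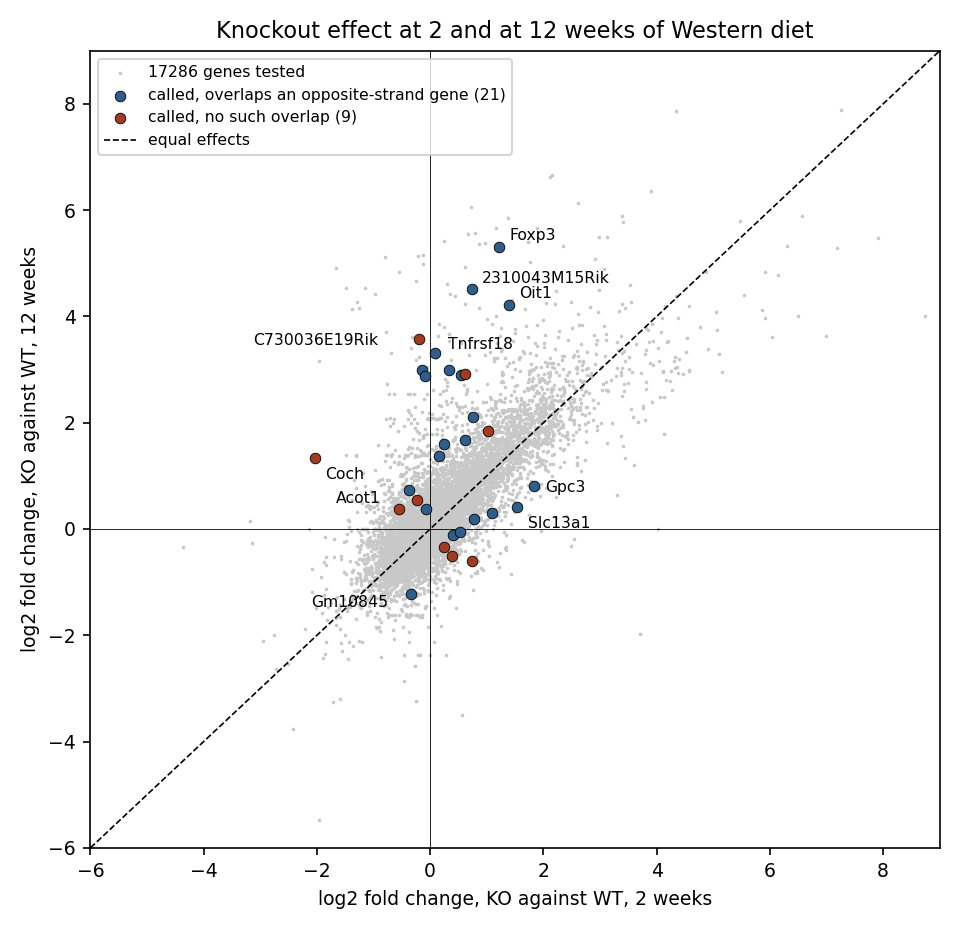
Each point is a gene, with the log2 fold change of knockout against wild type at 2 weeks on the x axis and at 12 weeks on the y axis, and the dashed line marks equal effects; 1 gene lies outside the axes. The 30 called genes are drawn in colour, 21 of them in blue for an opposite-strand overlap, and most of the higher ones lie near 0 at 2 weeks and well above 0 at 12 weeks.

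The 30 genes took 3 shapes. The knockout effect kept its sign and was larger at 12 weeks for 13 genes, 12 with a positive difference and Gm10845 with a negative one. It kept its sign and was smaller at 12 weeks for 4 genes, Slc13a1, Gpc3, Tmem176b and Acat3. It had opposite signs at the 2 durations for 13 genes, 8 with a positive and 5 with a negative difference. All 20 genes with a positive difference were higher in knockout at 12 weeks and passed there, while 8 of them passed at 2 weeks. Of the 10 with a negative difference, all passed at 2 weeks and 6 at 12 weeks. The values of the genotypes did not overlap for 15 of the 30 genes at 2 weeks (16.6% of all tested genes) and for 21 at 12 weeks (18.4%). Since the contrast that chose the genes is built from these same values, these counts describe the genes and are no test.

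Slc13a1, Gpc3, Tmem176b and Acat3 were higher in knockout at 2 weeks and closer to wild type at 12 weeks. Slc13a1, on chromosome 6 from 24088283 to 24168092 on the minus strand (mm10), encodes the brush border sodium-sulfate cotransporter. At 2 weeks its lowest, median and highest values were 168, 242 and 263 CPM in wild type and 509.7, 705 and 769.8 CPM in knockout. By 12 weeks they stood at 269, 289.6 and 382 CPM in wild type and 302, 401 and 537 CPM in knockout. The genotypes were apart at 2 weeks and overlapped at 12 weeks, with the knockout libraries having come down and the wild-type libraries up. The fold change was 2.9 at 2 weeks and 1.33 at 12 weeks, a log2 difference of -1.13 (SE 0.18, edgeR adjusted p = 0.0029). Slc13a1 was the only called gene of the 32 in the proximal tubule transporter list, whose median difference was -0.18 against -0.01 over all tested genes. It also ran against that list, in which 28 genes were lower and 1 was higher in knockout at 2 weeks, against 15.6% and 17.0% of all tested genes. Slc13a3, which encodes the basolateral dicarboxylate transporter of the same family, was 0.685 and 0.593 of wild type at 2 and 12 weeks, with a difference of -0.21 (SE 0.21, edgeR adjusted p = 0.76).

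Gpc3, on chromosome X from 52272426 to 52613950 on the minus strand, encodes glypican 3, a heparan sulfate proteoglycan of the cell surface. It stood at 9.81, 10.8 and 14.1 CPM in wild type and 29.9, 40.7 and 47.1 CPM in knockout at 2 weeks (lowest, median, highest). At 12 weeks the values were 11.4, 12.6 and 15 CPM in wild type and 18.8, 22 and 26.5 CPM in knockout. Knockout was above wild type at both durations without overlap, but the knockout libraries at 12 weeks all lay below those at 2 weeks. The ratio fell from 3.58 to 1.76 (log2 difference -1.03, SE 0.16, edgeR adjusted p = 0.0022). Its family member Gpc4 stood at 0.819 and 0.613 of wild type, with a difference of -0.42 (SE 0.17, edgeR adjusted p = 0.37). Slc13a1 and Gpc3 each overlap an opposite-strand gene, but their exons overlap no exons on that strand. Gm26386 and Gm14582 on that strand were not among the tested genes, so their levels were not compared.

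Tmem176b and Acat3 rose in knockout at 2 weeks and passed no test at 12 weeks. Tmem176b, a membrane protein gene, had means of 572 ± 47.4 CPM in wild type and 975 ± 115 CPM in knockout at 2 weeks (SD, n = 6). At 12 weeks the means of Tmem176b were 724 ± 61.1 and 819.6 ± 69.1 CPM, and its difference was -0.59 (SE 0.12, edgeR adjusted p = 0.035). Tmem176a, which overlaps it on the other strand, had a difference of -0.51 that did not pass (SE 0.12, edgeR adjusted p = 0.08). Acat3, a cytosolic acetyl-CoA acetyltransferase gene, was 2.12-fold higher in knockout at 2 weeks and 1.22-fold at 12 weeks, a difference of -0.80 (SE 0.17, edgeR adjusted p = 0.045). Exons of Acat3 overlap those of Tcp1 on the opposite strand over 23.5% of their length, so its value is uncertain. Both calls lay near the threshold, and most fits with 1 library left out lost them. Tmem176b stayed called in 8 and Acat3 in 5 of 24 fits, with an edgeR adjusted p of up to 0.081 and 0.12. The difference itself moved little, from -0.64 to -0.54 for Tmem176b and from -0.87 to -0.72 for Acat3.

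Of the 5 genes with opposite signs and a negative difference, Igsf5, Ppp4r4 and Gm44785 passed as higher in knockout at 2 weeks and lower at 12 weeks, while Sptlc2 and Spata6 passed at 2 weeks only. Igsf5, on chromosome 16 from 96361668 to 96422121, encodes an immunoglobulin superfamily protein of tight junctions and has no gene on the opposite strand. Its lowest, median and highest values at 2 weeks were 29.8, 31.6 and 34.8 CPM in wild type and 33.3, 37.4 and 46.5 CPM in knockout, which overlapped. At 12 weeks they were 27.5, 30.8 and 31.5 CPM in wild type and 20.4, 24.4 and 27.3 CPM in knockout, where every knockout library was the lower. The ratio of knockout to wild type was 1.19 and then 0.787 (log2 difference -0.59, SE 0.11, edgeR adjusted p = 0.014). Wild type had a log2 change of -0.10 with duration (edgeR adjusted p = 0.35), and knockout fell by 0.69 on the log2 scale (edgeR adjusted p = 7.9e-08).

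Sptlc2 encodes a catalytic subunit of serine palmitoyltransferase and overlaps opposite-strand genes, though without exon overlap. Its mean was 106 ± 9.56 CPM in wild type and 140.1 ± 11.3 CPM in knockout at 2 weeks, and 117 ± 9.75 and 108 ± 5.09 CPM at 12 weeks (SD, n = 6). At 12 weeks its log2 fold change of -0.11 did not pass (edgeR adjusted p = 0.24). The difference of Sptlc2 was -0.50 (SE 0.10, edgeR adjusted p = 0.02). The partner subunit Sptlc1 was lower in knockout at both durations, at 0.768 and 0.737 of wild type, and its difference was -0.06 (SE 0.09, edgeR adjusted p = 0.85). The subunits of the same enzyme thus had opposite genotype effects at 2 weeks, and both effects passed the test there (edgeR adjusted p = 7.6e-05 for Sptlc2 and 1.9e-05 for Sptlc1).

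Ppp4r4, a regulatory subunit gene of protein phosphatase 4 without an opposite-strand gene, was at 1.31 and 0.704 of wild type, a difference of -0.89 (SE 0.19, edgeR adjusted p = 0.045). Spata6, a gene known from sperm neck formation, rose 1.44-fold in knockout at 2 weeks and stood at 0.96 of wild type at 12 weeks, a difference of -0.58 (SE 0.12, edgeR adjusted p = 0.035). Both sit close to the threshold, and with a library left out Ppp4r4 was called in 6 and Spata6 in 11 of 24 fits. Spata6 overlaps opposite-strand genes without exon overlap. Of these Gm12960 had 13.2 CPM per kb against 4.36 for Spata6, so the value of Spata6 is uncertain. The predicted gene Gm44785 had the lowest difference of the called genes, -1.34 (SE 0.26, edgeR adjusted p = 0.016), from 1.66-fold to 0.66 of wild type. Gm10845 was the only gene that was lower in knockout at both durations and lower still at 12 weeks, at 0.794 and then 0.427 of wild type (difference -0.89, SE 0.19, edgeR adjusted p = 0.039). It overlaps Gm6999 on the opposite strand without exon overlap, at 1.34 CPM per kb against 3.89 for Gm6999, so its value is uncertain. As predicted genes, Gm44785 and Gm10845 were named outside the rule.

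Acot1 went from lower to higher in the knockout, and it was the only called gene of fat oxidation. It lies on chromosome 12 from 84009490 to 84018371, has no gene on the opposite strand, and encodes a cytosolic thioesterase that splits long-chain acyl-CoA and is a known target of the fatty acid sensor PPAR alpha. At 2 weeks its lowest, median and highest values were 61.2, 68.9 and 76.4 CPM in wild type and 38.1, 45.1 and 54.8 CPM in knockout, without overlap. After 12 weeks these were 49.0, 78.0 and 83.9 CPM in wild type and 82.6, 90.3 and 107 CPM in knockout, with 1 wild-type library reaching into the knockout range. The ratio was 0.681 and then 1.3 (log2 difference 0.93, SE 0.15, edgeR adjusted p = 0.0029). Knockout rose with duration (2.0-fold, edgeR adjusted p = 2.9e-08) while wild type did not change beyond its error (log2 change 0.07, edgeR adjusted p = 0.67). Acot1 has near-identical neighbours in its gene family, so reads could be shared between them. Acot2, the mitochondrial family member beside it, had a smaller difference of 0.38 that did not pass (SE 0.13, edgeR adjusted p = 0.25).

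Coch, on chromosome 12 from 51593341 to 51605771 and also without an opposite-strand gene, encodes cochlin, a secreted matrix protein. In wild type at 2 weeks it stood at 8.38, 10.9 and 14.2 CPM, and in knockout at 2.04, 2.5 and 3.8 CPM (lowest, median, highest). At 12 weeks wild type held 0.419, 1.77 and 4.57 CPM and knockout 1.8, 4.86 and 8.78 CPM. The genotypes were apart at 2 weeks, with wild type the higher, and overlapped at 12 weeks. Wild type fell to 0.171 of its 2-week level (edgeR adjusted p = 1.3e-05), and knockout stood at 1.76 times its own (edgeR adjusted p = 0.088). The log2 fold change of knockout was -2.04 at 2 weeks and 1.34 at 12 weeks, a difference of 3.37 (SE 0.53, edgeR adjusted p = 0.0029). Its call held in every fit with 1 library left out and in every alternative run for it.

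The promoters of these genes are shown because Acot1 and Coch are the called genes without an opposite-strand gene that turned from lower to higher and have a promoter entry. The sequences run from 250 bases before to 50 after the RefSeq gene start (GRCm38.p6), on the plus strand at chr12:84009252-84009551 and chr12:51593091-51593390. Capitals mark letters that match a searched motif: in Acot1 a CCAAT box at base -79 from the start, and in Coch a TATAAA box read from the other strand at base 4.
Acot1: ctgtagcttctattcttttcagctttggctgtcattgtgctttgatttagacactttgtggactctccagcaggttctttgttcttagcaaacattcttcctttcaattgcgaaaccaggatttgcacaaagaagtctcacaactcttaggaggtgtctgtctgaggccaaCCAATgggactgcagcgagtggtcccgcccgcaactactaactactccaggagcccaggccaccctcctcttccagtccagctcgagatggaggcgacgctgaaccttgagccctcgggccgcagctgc
Coch: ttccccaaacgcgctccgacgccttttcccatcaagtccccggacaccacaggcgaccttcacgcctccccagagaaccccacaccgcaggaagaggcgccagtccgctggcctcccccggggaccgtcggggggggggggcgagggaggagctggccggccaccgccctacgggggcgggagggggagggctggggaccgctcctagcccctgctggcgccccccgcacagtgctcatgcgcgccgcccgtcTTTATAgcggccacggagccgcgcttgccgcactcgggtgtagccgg
A promoter entry was found for 12032 tested genes and for 21 of the 30 called genes. On either strand CCAAT occurred in 7 of the 21 and in 38.2% of all, and TATAAA in 3 of the 21 and in 7.66% of all. The NF-kappa B motif occurred in 7 of the 21 and in 26.4% of all, and the AP-1 motif TGANTCA in 1 of the 21 and in 5.42% of all. The interferon-stimulated response element and the sterol element TCACNCCAC were in none of the 21 and in 3.23% and 1.15% of all. A match is a description of letters only.

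Sytl2 kept its direction with a larger effect at 12 weeks, and it too has no opposite-strand gene. It encodes a synaptotagmin-like protein that docks secretory vesicles with Rab27 and was named outside the rule. Its lowest, median and highest values were 31.8, 37.3 and 42.0 CPM in wild type and 66.7, 70.4 and 94.1 CPM in knockout at 2 weeks. At 12 weeks they were 18.3, 22.3 and 26.1 CPM in wild type and 65.8, 71.5 and 100.2 CPM in knockout. Knockout was higher without overlap at both durations, and wild type fell with duration (to 0.596, edgeR adjusted p = 9.6e-06) while knockout had a log2 change of 0.07 (edgeR adjusted p = 0.66). The fold change was 2.04 and then 3.58 (log2 difference 0.82, SE 0.16, edgeR adjusted p = 0.017).

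Nfe2l3, Mtcl1 and C730036E19Rik were the other genes with a positive difference and no opposite-strand gene. Nfe2l3, a transcription factor gene related to Nrf2, was 1.54-fold higher in knockout at 2 weeks and 7.54-fold at 12 weeks (difference 2.31, SE 0.49, edgeR adjusted p = 0.039), on 18 wild-type counts in all at 12 weeks. Mtcl1, a microtubule crosslinking factor gene named outside the rule, stood at 0.852 and then 1.45 times wild type (difference 0.77, SE 0.17, edgeR adjusted p = 0.045). With a library left out, Nfe2l3 stayed called in 11 and Mtcl1 in 7 of 24 fits. The clone C730036E19Rik, also outside the rule, had 780 counts in wild type and 675 in knockout over 6 libraries at 2 weeks but 3 and 53 at 12 weeks. Its fitted difference of 3.76 (SE 0.62, edgeR adjusted p = 0.0029) therefore rests on 3 wild-type counts and depends on the prior count of the fit, and its level fell with duration in both genotypes.

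**Figure D2:**
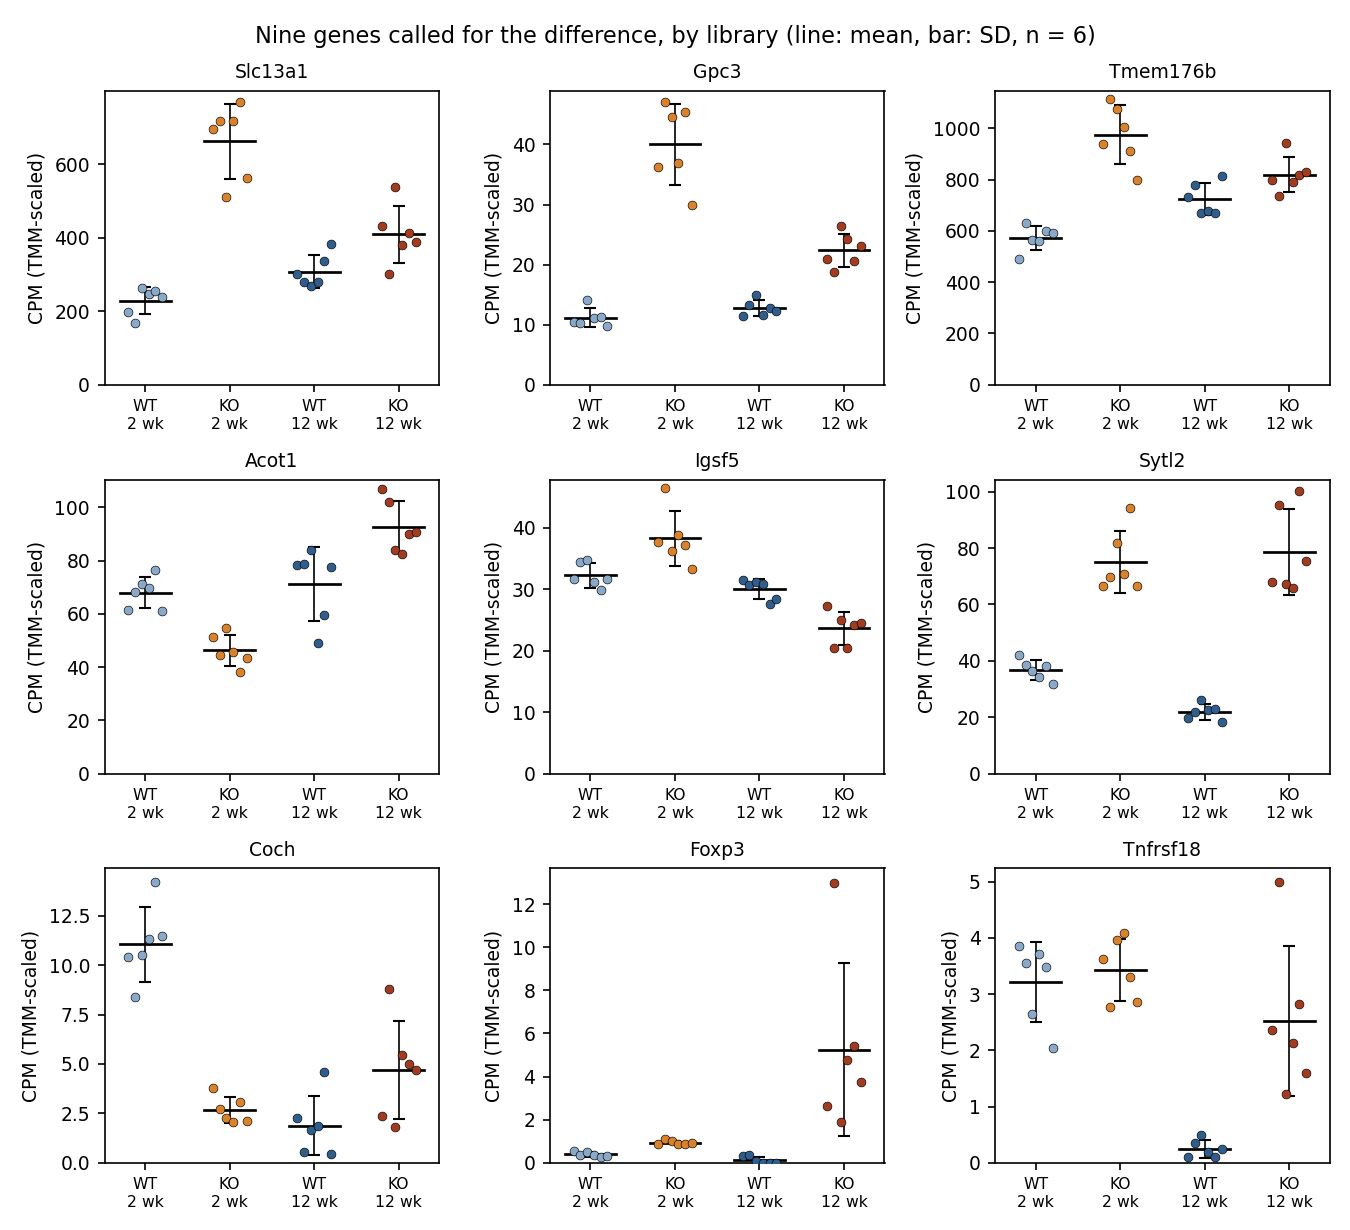
The level of 9 called genes in every library, in TMM-scaled CPM on a linear axis from 0, by genotype and duration, with the mean as a line and the SD as a bar (n = 6). Slc13a1, Gpc3, Tmem176b and Igsf5 came down in knockout from 2 to 12 weeks, Acot1 went up in knockout, and Sytl2, Coch and Tnfrsf18 came down in wild type.

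Foxp3, Tnfrsf18 and Camk4, genes with known roles in T cells, were among the positive differences, and each has a gene on the opposite strand. Foxp3, on chromosome X from 7573644 to 7595245, encodes the defining transcription factor of regulatory T cells. At 2 weeks its lowest, median and highest values were 0.268, 0.351 and 0.528 CPM in wild type and 0.88, 0.892 and 1.08 CPM in knockout. At 12 weeks they were 0.0, 0.0492 and 0.354 CPM in wild type and 1.89, 4.27 and 13.0 CPM in knockout. Knockout was higher without overlap at both durations, and all 6 knockout libraries at 12 weeks were above all others. The log2 fold change was 1.22 at 2 weeks and 5.31 at 12 weeks, a difference of 4.10 (SE 0.73, edgeR adjusted p = 0.0078), the largest that passed. The highest library, knockout replicate 2 at 12 weeks, was not needed for the call: without it the difference was 3.62 (edgeR adjusted p = 0.0042). On few counts, 8 in wild type and 432 in knockout over 6 libraries at 12 weeks, the size is poorly fixed. Exons of Foxp3 overlap opposite-strand exons over 18.7% of their length, and Ccdc22, on that strand, had a mean of 0.0 CPM in wild type at 2 weeks and 1.97 ± 0.53 CPM at 12 weeks.

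Tnfrsf18, the gene for the costimulatory receptor GITR of regulatory and activated T cells, did not differ by genotype beyond its error at 2 weeks and was 10.2-fold higher in knockout at 12 weeks. Its lowest, median and highest values at 2 weeks were 2.05, 3.52 and 3.86 CPM in wild type and 2.77, 3.47 and 4.08 CPM in knockout. At 12 weeks they were 0.0976, 0.219 and 0.492 CPM in wild type and 1.23, 2.25 and 4.99 CPM in knockout. At 12 weeks the genotypes were apart, and wild type had dropped to 0.0768 of its 2-week level while knockout stood at 0.735 of its own. The difference was 3.21 (SE 0.45, edgeR adjusted p = 0.00095), on 16 wild-type counts in all at 12 weeks. The antisense RNA Gm16008 overlaps 27.2% of its exon length at a level of 3.05 CPM per kb, against 1.55 for Tnfrsf18.

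Camk4, a calcium-dependent kinase gene of T cells and neurons, stood at 0.904 of wild type at 2 weeks and 8.15-fold higher at 12 weeks (difference 3.14, SE 0.49, edgeR adjusted p = 0.0025). The level of Camk4 was lower at 12 than at 2 weeks in both genotypes, by a log2 change of -4.23 in wild type and -1.09 in knockout. In wild type at 12 weeks it rested on 18 counts in all. Tnfrsf18 changed by -3.66 in wild type and -0.45 in knockout. The median change of 26 T and natural killer cell genes went the other way, with 0.60 in wild type and 1.47 in knockout. The summed level of 26 T and natural killer cell genes was also higher in knockout, without overlap at either duration. It ranged from 11.8 to 20.6 CPM in wild type and 32.8 to 59.7 CPM in knockout at 2 weeks, and from 13.6 to 33 CPM and 59.7 to 266 CPM at 12 weeks. Its part in the called genes was not tested.

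The other genes with a positive difference and an opposite-strand gene mostly fell with duration in wild type and fell less, or not at all, in knockout. Plppr3, a phospholipid phosphatase-related gene, had means of 7.86 ± 1.36 CPM in wild type and 9.9 ± 1.9 CPM in knockout at 2 weeks, and 0.802 ± 0.446 and 6.36 ± 2.16 CPM at 12 weeks (difference 2.66, SE 0.37, edgeR adjusted p = 0.00095). Its exons overlap those of Ptbp1, whose level of 29.0 CPM per kb was far above the 1.43 of Plppr3, and Ptbp1 itself had a difference of -0.03. Slc13a2os, antisense to the citrate transporter gene Slc13a2, fell from 6.62 ± 1.9 to 0.274 ± 0.253 CPM in wild type and from 6.19 ± 1.1 to 2.0 ± 0.524 CPM in knockout (difference 2.96, SE 0.45, edgeR adjusted p = 0.0022). Slc13a2 on the other strand had a difference of 0.13 (SE 0.24, edgeR adjusted p = 0.89). Exons of Slc13a2os overlap those of Slc13a2 over 17.4% of their length, at 1.04 CPM per kb against 25.9 for Slc13a2. The value of Slc13a2os is therefore uncertain. Oit1, a secreted protein gene, was 2.68-fold and then 19.4-fold higher in knockout (difference 2.83, SE 0.55, edgeR adjusted p = 0.018). The 19.4-fold ratio rests on 13 wild-type counts in all at 12 weeks.

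Rrad, a small GTPase gene that restrains calcium channels, was 1.69-fold higher in knockout at 2 weeks and 4.31-fold at 12 weeks (difference 1.36, SE 0.23, edgeR adjusted p = 0.0029). Exons of Rrad overlap opposite-strand exons over 8.94% of their length, and Gm33023 on that strand had 2.9 CPM per kb against 5.6 for Rrad. Tbc1d9, a Rab GTPase-activating protein gene, went from 1.53-fold to 3.19-fold (difference 1.07, SE 0.20, edgeR adjusted p = 0.0099). Its exons overlap those of Gm10645 on the opposite strand over 13.9% of their length, and Gm10645 was not among the tested genes. Lrfn4, a synaptic adhesion gene, went from 1.11-fold to 2.61-fold and Ypel1 from 1.19-fold to 3.03-fold (differences 1.23 and 1.36, edgeR adjusted p = 0.018 and 0.024). Lrfn4 lies within the pyruvate carboxylase gene Pcx, whose level was 128 CPM per kb against 3.07. Exons of Ypel1 overlap opposite-strand exons over 15.1% of their length, and Ppil2 on that strand had 9.02 CPM per kb against 0.715. With a library left out, Ypel1 stayed called in 20 of 24 fits. Syce2, a meiosis gene, was at 0.773 and then 1.65 times wild type (difference 1.10, SE 0.20, edgeR adjusted p = 0.011), after a fall with duration in both genotypes. Syce2 overlaps Gcdh on the opposite strand without exon overlap, at 2.43 CPM per kb against 137 for Gcdh, so its value is uncertain. Luzp1, a cytoskeletal gene, had the smallest difference called, 0.44 (SE 0.09, edgeR adjusted p = 0.026), from 0.955 to 1.3 times wild type. Luzp1 overlaps Kdm1a on the opposite strand without exon overlap, at 7.17 CPM per kb against 7.4 for Kdm1a. 2310043M15Rik rested on 3 wild-type counts at 12 weeks against 102 in knockout (difference 3.78, SE 0.62, edgeR adjusted p = 0.0029). Tbc1d9, Syce2, Luzp1 and 2310043M15Rik were named outside the rule.

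Called genes overlapped an opposite-strand gene in 21 of 30 cases (70.0%), against 43.8% of all tested genes, and their exons overlapped opposite-strand exons in 12 of 30 against 30.4%. The wild-type change between durations differed between classes of overlap. Among the 788 tested genes whose exons overlap a gene with a level more than 8-fold higher per kb, the 10th percentile of the wild-type log2 change from 2 to 12 weeks was -4.98, and 23.6% fell by more than 2. Among the 9710 genes without an opposite-strand gene the 10th percentile was -0.53, and 1.56% fell by more than 2. The most numerous overlapping class, 3354 genes whose exons overlap a gene of lower level, moved less than these, with a 10th percentile of -0.31 and 0.447% that fell by more than 2. Tagln, the gene for SM22, shows the opposite sign: 67.9% of its exon length overlaps opposite-strand exons, and its mean was 0.635 ± 0.0987 and 1.07 ± 0.192 CPM at 2 weeks against 36.9 ± 11.1 and 85.9 ± 30.4 CPM at 12 weeks. Its overlapping partner Pcsk7 had 43.6 ± 4.32 and 45.4 ± 1.61 CPM in wild type at the 2 durations. Of the 20 genes with a positive difference, 19 had a lower wild-type level at 12 weeks, 15 by more than 1 on the log2 scale, and 12 of these 15 overlap. No label says whether reads were counted by strand, nor whether this was the same at both durations, and its part in these differences was not tested. When the 7576 overlapping genes were left out and the rest refitted, 6 genes were called: Coch, Acot1, Sytl2, C730036E19Rik, Igsf5 and Gm44785.

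**Figure D3:**
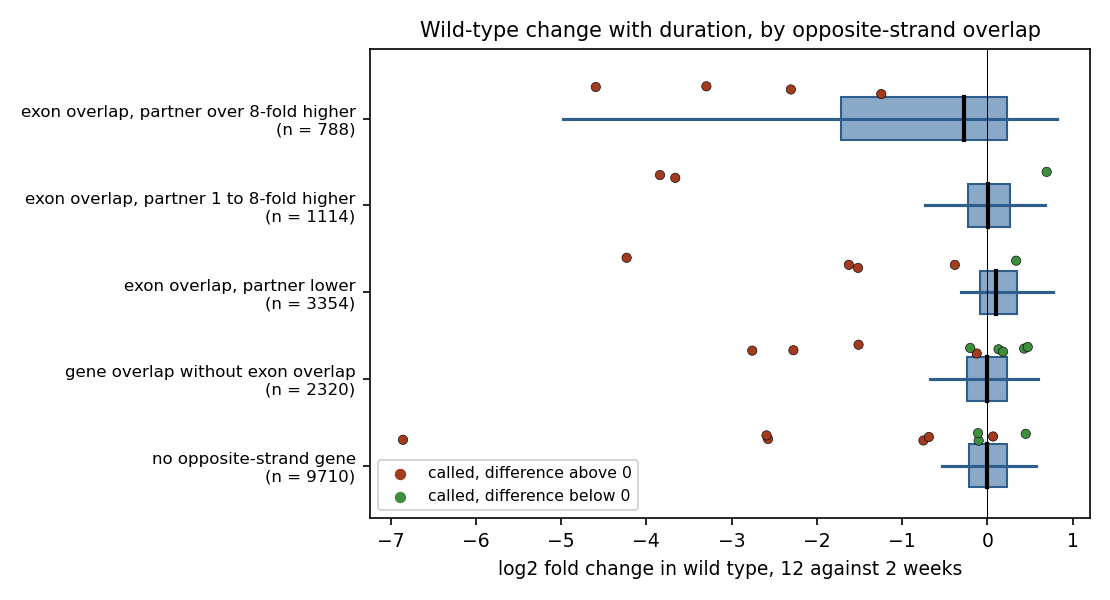
Log2 change of the wild-type level from 2 to 12 weeks on the x axis, by class of opposite-strand overlap, where the box spans the quartiles with the median as a line and the whisker runs from the 10th to the 90th percentile. Red and green points are the called genes with a positive and a negative difference, and the class whose partner is over 8-fold higher reaches down to -4.98 at its 10th percentile.

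Injury genes of the proximal tubule as a list had smaller knockout effects at 12 than at 2 weeks, although none passed the test. The list holds 28 genes of injured and failed-repair tubules, and 26 of them were higher in knockout at each duration, against 17.0% and 20.8% of all tested genes. Its median log2 fold change was 2.63 at 2 weeks and 2.11 at 12 weeks. The median difference was -0.66, against -0.01 over all tested genes, with 21 members below 0. At a raw p under 0.05, 15 were lower and 1 was higher, against 5.13% and 5.48% of all tested genes. DESeq2, whose adjusted p called 154 of 16265 genes (0.947%), called 8 of the list lower and Krt19 higher. The median stayed between -0.75 and -0.57 with any library left out.

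Spp1, the gene for the secreted matrix and cytokine protein osteopontin, is a member of this list. Its lowest, median and highest values at 2 weeks were 389, 489 and 565 CPM in wild type and 4588, 9245 and 10079 CPM in knockout. After 12 weeks of diet they were 302, 388 and 406 CPM in wild type and 2053, 2329 and 4846 CPM in knockout. The genotypes were apart at both durations, and knockout replicate 6 at 2 weeks was low in its group while knockout replicate 3 at 12 weeks was high in its own. The ratio was 17.4 and then 7.85, a difference of -1.15 (SE 0.27, edgeR adjusted p = 0.08). Without knockout replicate 3 at 12 weeks the edgeR adjusted p of Spp1 was 0.0033, and without knockout replicate 6 at 2 weeks it was 0.013, so either library decides its call.

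The fibrinogen gamma chain gene Fgg went from 23.4-fold to 7.95-fold (difference -1.58, SE 0.35, edgeR adjusted p = 0.08), and the beta chain gene Fgb from 34.3-fold to 9.94-fold (difference -1.80, SE 0.52, edgeR adjusted p = 0.17). Vcam1, an adhesion molecule of failed-repair tubule cells, went from 14.1-fold to 6.19-fold, where its knockout level was 129 ± 29.6 and 111 ± 23.9 CPM and its wild-type level rose from 9.19 ± 1.5 to 18 ± 5.81 CPM (difference -1.19, SE 0.29, edgeR adjusted p = 0.1). Without knockout replicate 6 at 2 weeks the adjusted p of Fgg was 0.031 and that of Vcam1 0.03. For Vcam1 the change with duration passed in wild type (1.96-fold, edgeR adjusted p = 0.0015) and not in knockout (0.861, edgeR adjusted p = 0.4). Clu, the chaperone clusterin, went from 6.69-fold to 3.93-fold (difference -0.77, SE 0.21, edgeR adjusted p = 0.13) and the repair transcription factor gene Sox9 from 11.6-fold to 4.78-fold (difference -1.29, SE 0.45, edgeR adjusted p = 0.26). The main urinary injury markers showed no called change: Lcn2 was 80.1-fold and 40.0-fold higher (difference -0.97, SE 0.48, edgeR adjusted p = 0.48), and Havcr1, the gene for KIM-1, 10.6-fold and 19.1-fold (difference 0.84, SE 0.87, edgeR adjusted p = 0.77). Wild-type Havcr1 ran from 2.79 to 45.6 CPM at 2 weeks and from 1.22 to 17.4 CPM at 12 weeks, and its difference was 1.90 without wild-type replicate 2 and 0.52 without knockout replicate 3 at 12 weeks. Krt19, a keratin gene of dedifferentiated epithelium, was 1 of 7 members with a difference above 0, from 4.36-fold to 9.25-fold (difference 1.10, SE 0.28, edgeR adjusted p = 0.11).

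**Figure D4:**
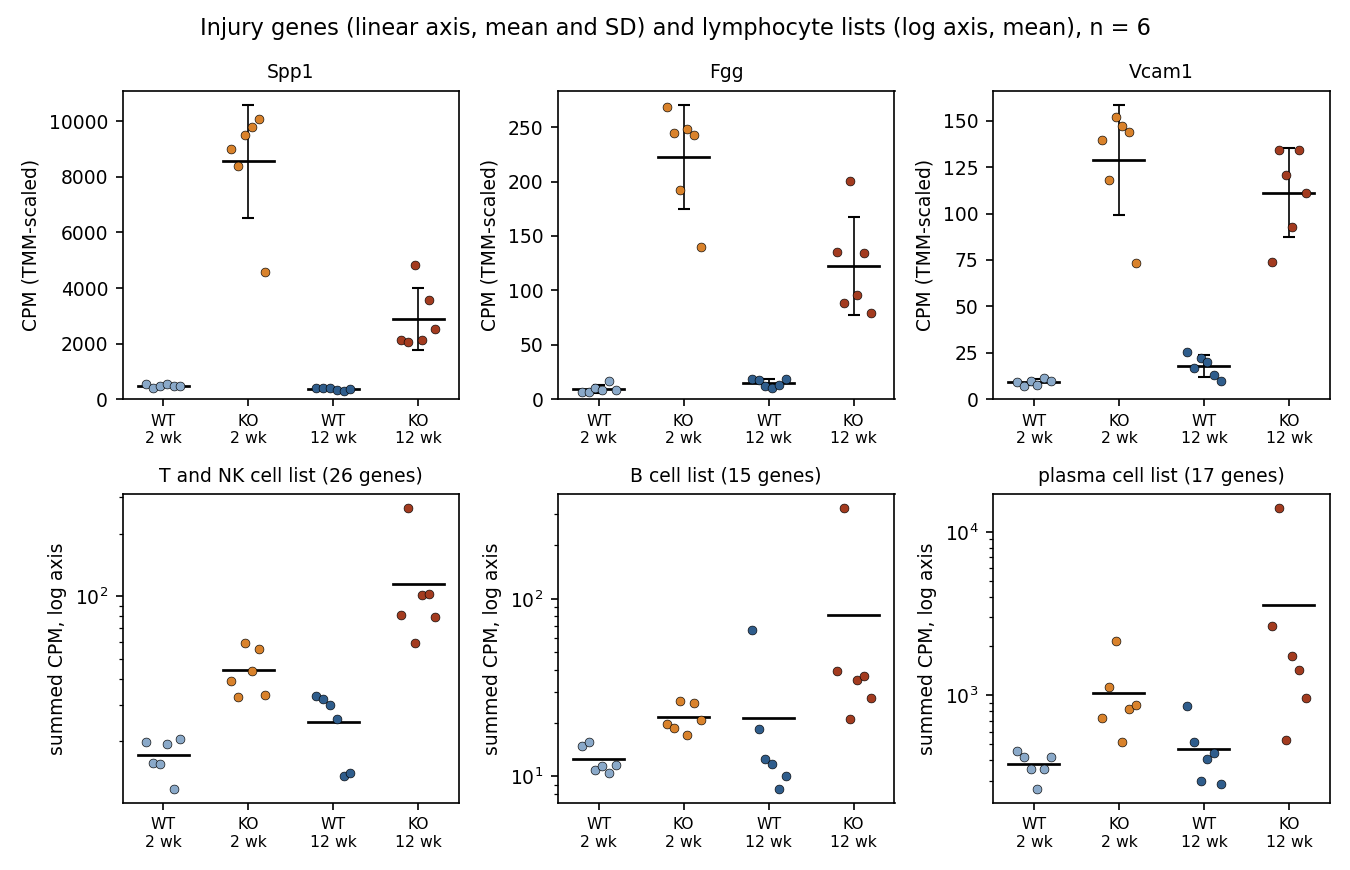
Each point is a library, by genotype and duration (n = 6). The upper row shows Spp1, Fgg and Vcam1 in CPM on a linear axis with mean and SD, where knockout stands above wild type at both durations; the lower row shows the summed CPM of 3 lymphocyte lists on a log axis with the mean, where 1 knockout library at 12 weeks lies far above the rest.

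Lymphocyte lists had positive median differences that rested in large part on 1 library. Knockout replicate 2 at 12 weeks held 266 CPM of T and natural killer cell genes, 325 CPM of B cell genes and 13969 CPM of plasma cell and immunoglobulin genes, the highest of its group in each case. For T and natural killer cells the median difference over 26 genes was 0.82 with 25 above 0, and 0.40 without that library. For 15 B cell genes it was 1.03 and turned to -0.25 without it, and for 17 plasma cell genes it was 1.51 and then 0.33. Foxp3 was the only called gene of these 3 lists, and 7 T cell, 0 B cell and 3 plasma cell genes were higher at a raw p under 0.05, against 5.48% of all genes. Trac, the T cell receptor alpha constant gene, was 1.94-fold and 5.27-fold higher in knockout (difference 1.46, SE 0.44, edgeR adjusted p = 0.18). Klrd1, a natural killer receptor gene, went from 1.45-fold to 3.18-fold (difference 1.13, SE 0.35, edgeR adjusted p = 0.2), and its difference was 1.20 without the library. Cd4 had a difference of 0.49 (SE 0.55, edgeR adjusted p = 0.79), which dropped to 0.12 without it. Ighm, the IgM heavy chain gene, had a difference of 2.86 (SE 1.5, edgeR adjusted p = 0.51) with that library and 0.33 without it.

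Macrophage and dendritic cell genes had a median difference of -0.22 over 30 genes, which was -0.01 without wild-type replicate 1 at 12 weeks. Of these genes 28 were higher in knockout at 2 weeks and 29 at 12 weeks, against 17.0% and 20.8% of all tested genes. Chemokine genes had -0.26 over 22 genes, complement genes -0.23 over 20, and cytokine and NF-kappa B genes -0.17 over 23, with 5, 6 and 5 lower at a raw p under 0.05, against 5.13% of all genes. With 1 library left out these medians ranged from -0.35 to -0.14 (highest without knockout replicate 3 at 2 weeks), from -0.32 to -0.07 (highest without wild-type replicate 4 at 12 weeks) and from -0.29 to -0.10 (highest without wild-type replicate 1 at 12 weeks). Matrix and fibroblast genes had -0.08 over 37 genes, which ranged from -0.17 to 0.12 and was highest without knockout replicate 3 at 2 weeks, and 35 were higher in knockout at each duration. No member of these 5 lists was called by edgeR.

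Of 14 thick ascending limb genes 9 were lower in knockout at 2 weeks, against 15.6% of all tested genes. At 12 weeks 5 were lower and 2 higher, against 21.3% and 20.8% of all tested genes. The median difference was 0.30, with 13 above 0 and 7 of them at a raw p under 0.05, against 5.48% of all genes, and none was called by edgeR. The median log2 fold change was -0.41 at 2 weeks and -0.12 at 12 weeks. Slc12a1, the furosemide-sensitive sodium-potassium-chloride cotransporter gene, had lowest, median and highest values of 1324, 1438 and 1739 CPM in wild type and 778, 958 and 1077 CPM in knockout at 2 weeks. At 12 weeks the values were 655, 782 and 943 CPM in wild type and 471, 809.6 and 879 CPM in knockout. The genotypes were apart at 2 weeks and overlapped at 12 weeks, after wild type fell to 0.527 of its 2-week level (edgeR adjusted p = 1.6e-06). The difference of Slc12a1 was 0.63 (SE 0.18, edgeR adjusted p = 0.15). Egf stayed lower in knockout at both durations (0.424 and 0.557 of wild type, difference 0.39, SE 0.24, edgeR adjusted p = 0.59), and Umod, the uromodulin gene, did not differ by genotype at either duration beyond its error (difference 0.19, SE 0.20, edgeR adjusted p = 0.78).

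The list of 12 podocyte genes had a median log2 fold change of -0.07 at 2 weeks and 0.41 at 12 weeks. At 2 weeks 1 gene was lower in knockout, against 15.6% of all tested genes, and at 12 weeks 7 were higher and 1 lower, against 20.8% and 21.3%. The median difference was 0.41, with 11 above 0 and 6 of them at a raw p under 0.05, against 5.48% of all genes, and none was called by edgeR. Nphs1, the nephrin gene of the slit diaphragm, stood at 26.8, 28.0 and 33.8 CPM in wild type and 20.4, 22.4 and 24.3 CPM in knockout at 2 weeks (lowest, median, highest). At 12 weeks it stood at 33.9, 35.8 and 56.3 CPM in wild type and 35.1, 45.6 and 61.2 CPM in knockout. Knockout was below wild type without overlap at 2 weeks and overlapped it at 12 weeks (difference 0.62, SE 0.18, edgeR adjusted p = 0.17). Synpo, the synaptopodin gene, had a difference of 0.46 (edgeR adjusted p = 0.27).

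Of 36 fatty acid oxidation genes 10 were higher and none lower at a raw p under 0.05, against 5.48% higher among all genes, and Acot1 was called. The median difference of that list was 0.09. Pdk4, which restrains glucose oxidation, was 1.02-fold and then 2.03-fold (difference 1.01, SE 0.31, edgeR adjusted p = 0.2). Of 22 sterol synthesis and uptake genes 20 had a difference below 0, with a median of -0.25 against -0.01 over all tested genes. Of these, 4 were lower at a raw p under 0.05, against 5.13% of all genes, and none was called. Fasn, the fatty acid synthase gene, went from 0.679 to 1.32 (difference 0.97, SE 0.30, edgeR adjusted p = 0.2).

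Markers of fat cells varied widely between libraries of 1 group. Adipoq, the adiponectin gene of adipocytes, ranged from 0.0 to 6.19 CPM in wild type and 0.0518 to 1.49 CPM in knockout at 2 weeks, and from 0.0 to 1.46 CPM and 0.0 to 18.5 CPM at 12 weeks. Plin1 and Cidec, lipid droplet genes of adipocytes, were highest in the same library as Adipoq, knockout replicate 4 at 12 weeks, with 24.6 and 22.3 CPM, and Plin1 was at 0 in knockout replicates 3 and 6 of that group. The list of 18 lipid droplet, scavenger receptor and adipocyte genes had a median difference of 0.68. Of these, 8 were higher at a raw p under 0.05, against 5.48% of all genes, and none was called. The part of these markers in the lipid genes was not tested.

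**Figure D5:**
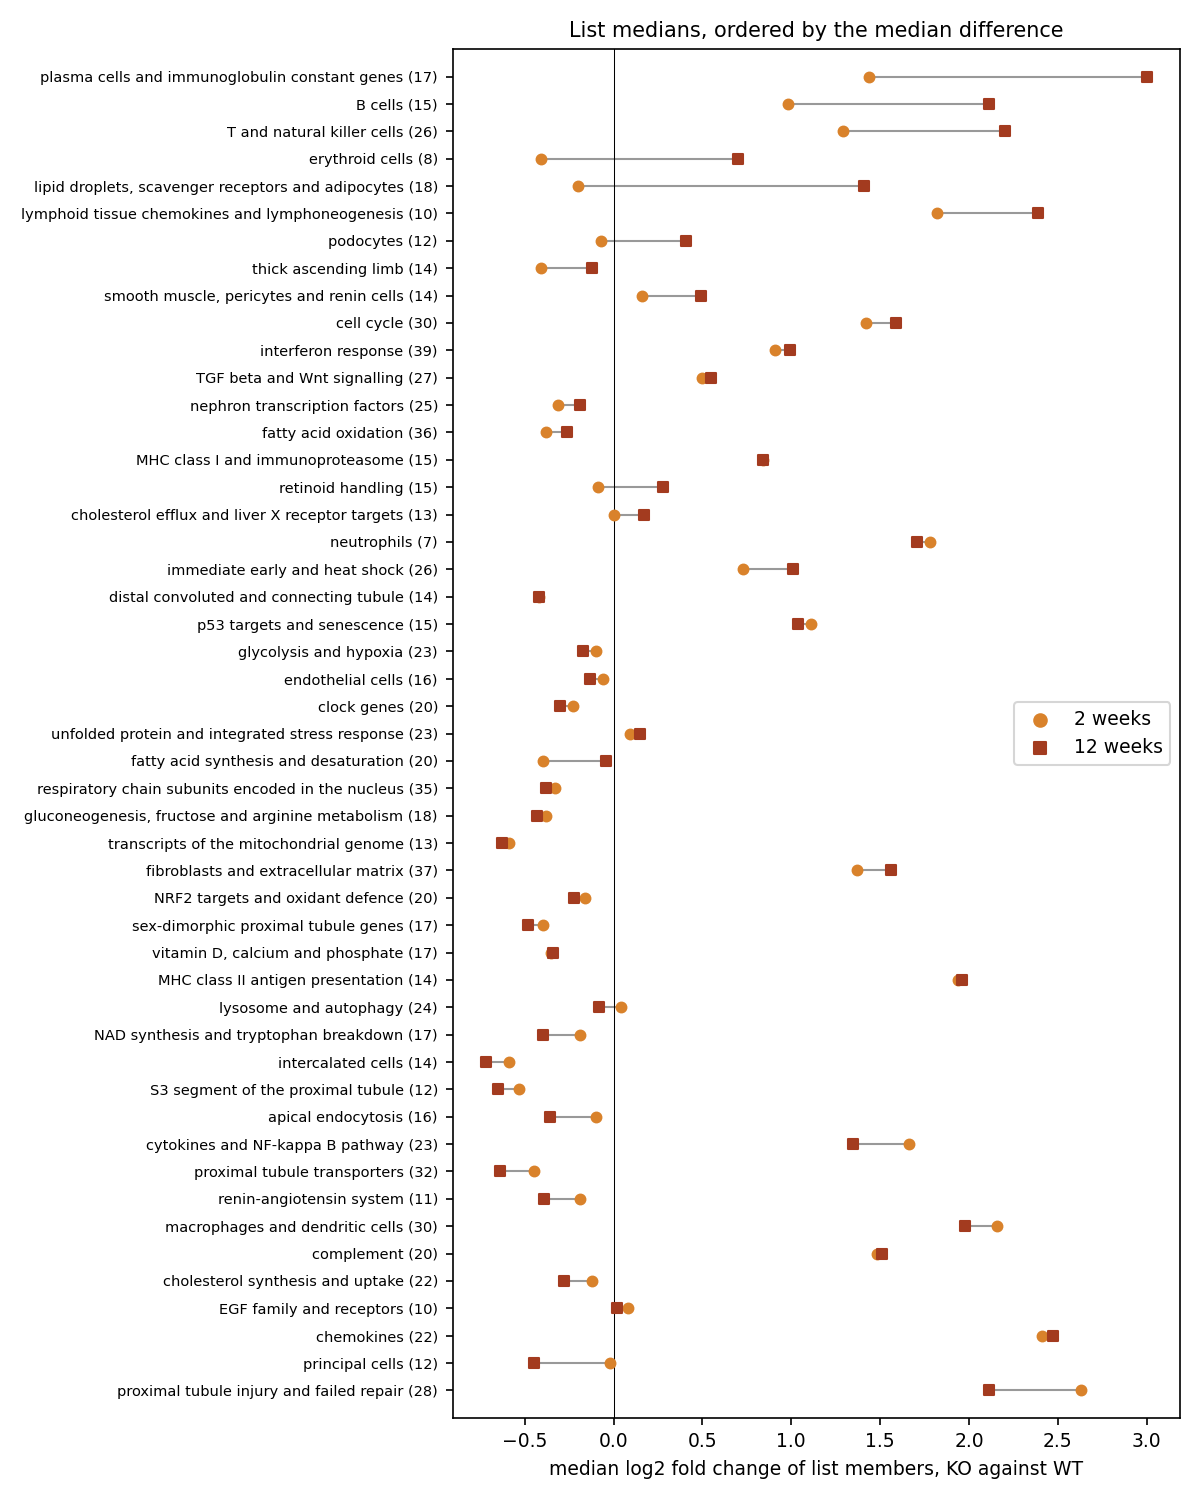
Median log2 fold change of knockout against wild type at 2 weeks (circles) and at 12 weeks (squares) for each list with at least 5 tested genes, ordered by the median difference, with the number of genes in brackets. The injury list lies at the bottom, with 2.63 at 2 and 2.11 at 12 weeks, and the plasma cell list at the top, with 1.44 and 3.0.

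Over all 51 lists, with 943 distinct tested genes, 3 members were called: Foxp3, Acot1 and Slc13a1. Nuclear respiratory chain genes had a median difference of -0.05 and transcripts of the mitochondrial genome -0.07, with none of 35 and none of 13 at a raw p under 0.05. Interferon response genes had 0.18 over 39 genes with none at that level, and -0.02 without knockout replicate 2 at 12 weeks. Principal cell genes had -0.32 over 12 genes, 3 of them lower at a raw p under 0.05, against 5.13% of all genes. The median genotype effect of that list went from -0.02 to -0.45. Just inside the threshold lay Acat3 and Ppp4r4 (edgeR adjusted p = 0.045 each). Just outside it lay the iron exporter gene Slc40a1, 1.6-fold and then 1.13-fold higher in knockout (difference -0.50, edgeR adjusted p = 0.053), and Selenbp2, from 1.44-fold to 0.564 of wild type (difference -1.36, edgeR adjusted p = 0.054).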

How the data were processed

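Kidney RNA libraries were made with a NEBNext Ultra kit, per the labels' protocols, and reads were handled with fastp, STAR 2.5 and HTSeq 0.6.1 on mm10, per the submitters' processing notes. No source here gives the strand setting or the annotation used for counting. The authors deposited whole-number counts per gene and library, and 54495 of 54532 identifiers were matched to GENCODE M21 for positions and opposite-strand overlap. Counts of all 24 libraries in 4 groups were fitted in 1 model with edgeR 4.0.16 (TMM scaling, filterByExpr with a minimum count of 10, robust quasi-likelihood test, R 4.3.3), and the contrast was the knockout effect at 12 weeks minus that at 2 weeks. The Benjamini-Hochberg threshold was 0.05, and the SE was derived from the log2 value and its F statistic. The levels are TMM-scaled counts per 1000000 (CPM). The script was tested on simulated data.

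Named genes were Lrp2, the 12 called genes with the largest difference and the 6 with the smallest adjusted p in each direction (mean of at least 1 CPM, at least 3 counts at each duration, no predicted gene, clone or receptor segment), and up to 4 called members of each list. Other genes were named after their values were seen. The members, lists and tests were chosen with earlier results of these data known. Alternatives were DESeq2 1.42.0, limma 3.58.1 voom, other scalings and filters, thinned counts, a replicate block, subsets of genes, and fits that omit a library. Promoters came from RefSeq. Figures were drawn with matplotlib 3.10.9. Values of 1 called gene and of some list members are not reported here.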

Additional observations from a re-analysis of the deposited data

Results flagged for a closer look

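The 30 called genes are those whose genotype effect differed between the durations by the test of the difference itself, and 29 of them are given here. The log2 differences above 0 were 4.10 for Foxp3, 3.78 for 2310043M15Rik, 3.76 for C730036E19Rik, 3.37 for Coch, 3.21 for Tnfrsf18, 3.14 for Camk4, 2.96 for Slc13a2os, 2.83 for Oit1 and 2.66 for Plppr3. Smaller ones were 2.31 for Nfe2l3, 1.36 for Rrad and for Ypel1, 1.23 for Lrfn4, 1.10 for Syce2, 1.07 for Tbc1d9, 0.93 for Acot1, 0.82 for Sytl2, 0.77 for Mtcl1 and 0.44 for Luzp1. Below 0 were -1.34 for Gm44785, -1.13 for Slc13a1, -1.03 for Gpc3, -0.89 for Ppp4r4 and for Gm10845, -0.80 for Acat3, -0.59 for Igsf5 and for Tmem176b, -0.58 for Spata6 and -0.50 for Sptlc2.

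Single libraries stood apart from the other 5 of their group by Dixon's criterion in 15 of 132 groups examined, where chance alone gives about 1 in 20 for independent, normally distributed values. The groups are not independent, since knockout replicate 2 at 12 weeks was the highest of its group for Foxp3, Camk4 and the summed lymphocyte lists. No excess over chance can be read from the count. In knockout at 12 weeks the highest library held 13.0 CPM of Foxp3, 4.83 CPM of Camk4 and 17.2 CPM of Mtcl1, and the lowest held 4.11 CPM of Ppp4r4. In knockout at 2 weeks the highest held 33.7 CPM of Spata6 and 6.31 CPM of Gm44785. In wild type the highest held 1.37 CPM of Ypel1 and 3.84 CPM of Rrad at 12 weeks, and 10.1 CPM of Rrad and 14.1 CPM of Gpc3 at 2 weeks. Summed lymphocyte lists stood apart in knockout at 12 weeks, with 13969 CPM of plasma cell, 325 CPM of B cell and 266 CPM of T and natural killer cell genes. They did so too for plasma cell genes in knockout at 2 weeks, with 2146 CPM, and for B cell genes in wild type at 12 weeks, with 66.7 CPM.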

How the results depend on the processing

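None of the 30 genes changed sign in any of the 1104 combinations of gene and setting, of which 913 kept and 191 lost the call. In every setting run for them 7 genes kept the call, and of these Coch and C730036E19Rik had all 38 settings. The rest, 2310043M15Rik, Camk4, Plppr3, Slc13a2os and Tnfrsf18, had 35 or 36. Fits that left out genes with opposite-strand overlap did not include them and so could not test their calls. Against 30 calls (20 higher, 10 lower), DESeq2 made 154 (91 and 63), a minimum log2 difference of 1 gave 7 (7 and 0), leaving out genes that overlap the opposite strand gave 6 (4 and 2), and leaving out those with exon overlap, chosen after seeing the data, gave 13 (8 and 5). Lower calls were 6 with no filter on low counts, 6 with thinned counts and 6 without sex-chromosome and receptor segment genes. Genes with the same sign and a larger effect at 12 weeks (13) numbered 43, 3, 1 and 3 in those same 4 settings and 8 with voom. Those with a smaller effect (4) numbered 38, 0, 0 and 2, and 2 without sex-chromosome and receptor segment genes. Those with opposite signs (13) numbered 73, 4, 5 and 8. The cause was not tested beyond fewer genes entering the gene subsets. The minimum log2 difference left 551 calls at 2 weeks and 802 at 12 weeks, and leaving out overlapping genes left 3235 and 4024. With each library left out in turn the calls ranged from 22 to 53, 17 to 31 higher and 4 to 22 lower. The most, 53, came without knockout replicate 3 at 12 weeks, and 43 came without knockout replicate 6 at 2 weeks. The patterns ranged from 10 to 18 (larger), 2 to 15 (smaller) and 8 to 24 (opposite), the calls at 2 weeks from 4746 to 5857 and at 12 weeks from 5931 to 7583. List medians ranged from 0.33 to 1.91 for plasma cells and from -0.25 to 1.88 for B cells, both lowest without knockout replicate 2 at 12 weeks. The replicate block gave 27 calls, 22 of them shared with the fit without it, and the numbers did not pair the libraries: over 36 same-numbered pairs the correlation of deviations ran from -0.28 to 0.17. Depth limits genes with few counts at 12 weeks, such as those with 3 wild-type counts.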
